A study of Mus musculus with 34 samples.

Results

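Fibroblast growth factors (FGFs) and their receptors were followed across 12 groups of sorted mouse stromal cells. The set held 10 genes chosen by name, 7 ligand genes (Fgf1, Fgf2, Fgf7, Fgf9, Fgf10, Fgf18 and Fgf21) and 3 receptor genes (Fgfr1, Fgfr2 and Fgfr4), out of 51826 gene identifiers. All 10 passed the filter on low counts, as did 25705 genes in all. The study sequenced polyadenylated RNA to ask how transcription in stromal cells depends on the tissue. Mesothelial cells (podoplanin-positive, PDGFRA-negative) came from omentum, mesentery and epididymal fat. Fibroblasts (podoplanin-positive, PDGFRA-positive) came from the same 3 sites, from inguinal and brown adipose tissue, and from spleen, pancreas, lymph node (sLN in the labels) and bone. Both kinds of cell were sorted as lacking CD45, CD31 and Epcam, and every library carried the label GFPneg, and the labels name no treatment. The labels class omentum, mesentery and the epididymal depot as visceral fat, and put the inguinal and brown depots together as subcutaneous fat. There were 34 libraries, 2 each for fibroblasts of pancreas and spleen and 3 for every other group. Strain, age and sex are not given in the sources used here, nor is it stated that replicates were separate animals, so p-values measure the spread between these libraries, which may be technical. Means are given ± SD over the libraries of a group, and log2 fold changes ± SE.

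FGFs are secreted signals that bind FGF receptors, tyrosine kinases on the cell surface, together with heparan sulfate chains, which hold the ligand near the cell that made it. FGF7 and FGF10 are made by connective tissue cells and act on epithelium through a splice form of FGFR2, whereas FGF9 acts mainly on connective tissue cells, and in the developing mouse lung it is made by epithelium and by the mesothelium. FGF1 and FGF2 lack a classical secretion signal, FGF1 binds all FGF receptors, and mice lacking Fgf1 fail to remodel visceral fat on a high-fat diet. FGF21 is an endocrine hormone, made mainly by the liver, that needs the co-receptor beta-Klotho. Counts per gene cannot tell the splice forms of a receptor apart.

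Sequence upstream of the transcription start was taken for 8 of the 10 genes from the RefSeq promoter table. The 250 bases before the start are shown for Fgf7, Fgf9 and Fgf10. These ligand genes had the largest log2 fold changes between the cell types, as the mean over the 3 sites that gave both. Of them, 2 were higher in fibroblasts and 1 in mesothelial cells. All 3 lie on the plus strand of GRCm38.p6, Fgf7 at chr2:126034408-126034657, Fgf9 at chr14:58072436-58072685 and Fgf10 at chr13:118714449-118714698. The Fgf9 and Fgf10 windows lie inside the GENCODE spans of these genes, which begin further upstream. Capitals mark a match on either strand to the CCAAT box (CCAAT) or the GC box (GGGCGG).
Fgf7: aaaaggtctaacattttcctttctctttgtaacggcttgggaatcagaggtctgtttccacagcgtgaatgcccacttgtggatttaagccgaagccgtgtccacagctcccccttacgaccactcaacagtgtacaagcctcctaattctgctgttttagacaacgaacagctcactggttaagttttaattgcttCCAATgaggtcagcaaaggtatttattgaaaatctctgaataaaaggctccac
Fgf9: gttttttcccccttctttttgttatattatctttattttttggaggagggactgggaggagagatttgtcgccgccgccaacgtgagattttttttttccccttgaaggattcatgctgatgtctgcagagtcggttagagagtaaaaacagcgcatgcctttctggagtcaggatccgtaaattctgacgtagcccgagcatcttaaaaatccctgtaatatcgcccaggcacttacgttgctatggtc
Fgf10: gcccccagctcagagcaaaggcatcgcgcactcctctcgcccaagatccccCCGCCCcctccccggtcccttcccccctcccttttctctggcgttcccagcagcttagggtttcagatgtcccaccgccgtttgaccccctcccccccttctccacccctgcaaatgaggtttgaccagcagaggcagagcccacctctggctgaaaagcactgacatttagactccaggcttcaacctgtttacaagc
The Fgf7 window held 1 CCAAT box, the Fgf10 window 1 GC box and the Fgf9 window neither. None of these 3 held a TATA box (TATAAA) or an AP-1 site (TGANTCA). Over all 32851 promoters of the same length, 33.8% held a CCAAT box, 32.7% a GC box, 12.4% a TATA box and 6.75% an AP-1 site. The bases were 43.6% G or C in the Fgf7 window, 44.8% in the Fgf9 window and 61.2% in the Fgf10 window, against a median of 52.4% over all promoters. These matches describe the letters only.

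Total counts ran from 28651435 to 42335589 per library. The sort was checked on Pdgfra, which ran from 4.43 to 13.5 CPM (counts scaled to library size) in the 9 mesothelial libraries and from 367 to 1424 CPM in the 25 fibroblast libraries, and all 11 mesothelial markers had a higher mean in mesothelial cells. A list of 7 fibroblast genes (Pdgfra, Pdgfrb, Dcn, Lum, Col1a1, Col1a2 and Col3a1) separated the cell types in only some tissues (marker sums are on unscaled totals). It summed to 25129 to 29172, 22977 to 26984 and 22547 to 26768 CPM in mesothelial cells of omentum, mesentery and epididymal fat. Fibroblast sums reached into this range in omentum (29137 to 32589 CPM), lymph node (20593 to 28236 CPM) and pancreas (19467 to 31255 CPM). They lay above it in mesentery (34292 to 39616 CPM), epididymal fat (39259 to 41896.5 CPM), spleen (40011 to 41989 CPM), brown adipose (58488 to 65655 CPM), inguinal (63366 to 72263.5 CPM) and bone fibroblasts (116529 to 176491 CPM). Other cell types left transcripts in some libraries, and their part in the results was not tested. Summed over 11 mesothelial markers, mesothelial libraries held at least 10755 CPM, against 668 to 997 CPM in omentum fibroblasts and 8.82 to 283 CPM in the other fibroblasts. Summed over 9 pancreatic acinar markers, 8 libraries reached 1000 CPM, among them both pancreas libraries and 3 mesothelial ones. Over 7 leukocyte markers, the sums were 842 to 1862 CPM in mesentery mesothelial cells and 635 to 772 CPM in omentum mesothelial cells, against 16.5 to 45.4 CPM in mesentery fibroblasts and 387 to 548 CPM in omentum fibroblasts. In bulk RNA, fewer cells of a type and less RNA per cell cannot be told apart.

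The genes lie apart in the genome (GRCm38, GENCODE M21 annotation). The ligand genes were Fgf1 (ENSMUSG00000036585, chr18:38838673-38929472, minus strand), Fgf2 (ENSMUSG00000037225, chr3:37348346-37410108, plus strand), Fgf7 (ENSMUSG00000027208, chr2:126034658-126091185, plus strand), Fgf9 (ENSMUSG00000021974, chr14:58070547-58112720, plus strand), Fgf10 (ENSMUSG00000021732, chr13:118669791-118792115, plus strand), Fgf18 (ENSMUSG00000057967, chr11:33117430-33147400, minus strand) and Fgf21 (ENSMUSG00000030827, chr7:45613886-45615490, minus strand). The receptor genes were Fgfr1 (ENSMUSG00000031565, chr8:25513654-25575718, plus strand), Fgfr2 (ENSMUSG00000030849, chr7:130162451-133123350, minus strand) and Fgfr4 (ENSMUSG00000005320, chr13:55152640-55168759, plus strand). Fgf2 shares 640 exon bases with Nudt6 on the other strand, and the strand setting of the counting is not given in the sources used here. Reads over those bases cannot be assigned to either gene, and Nudt6 reached 6.20 CPM in an omentum mesothelial library, so low Fgf2 values are uncertain. Fgf10 likewise shares 123 exon bases with the antisense gene Gm16263, which reached 6.38 CPM. Fgfr2 shares 314 exon bases with Ctbp2 on the same strand, where Ctbp2 averaged 14.8 CPM, so low Fgfr2 values are uncertain.

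Transcript levels per length were dominated by a single ligand in mesothelial cells. In TPM (transcript abundance scaled to length, here summed exon length, and to a fixed total), Fgf1 averaged 409 ± 107 in omentum, 1181 ± 228 in mesentery and 973 ± 259 in epididymal mesothelial cells (SD, n = 3 each). This was 92.99% ± 0.958, 93.7% ± 0.244 and 94.03% ± 1.73 of the summed TPM of the 7 ligand genes in those groups. Fgf9 came next after Fgf1 in TPM in all 3 mesothelial groups, at 14.2 ± 4.73 in omentum, 55.5 ± 11.1 in mesentery and 32.4 ± 10.4 in epididymal cells. Fgf7 was the highest ligand gene in 8 of the 9 fibroblast groups, between 28.1 ± 14.4 TPM in pancreas (n = 2) and 125 ± 7.39 TPM in inguinal fibroblasts (n = 3). In pancreas Fgf7 was above Fgf1 in replicate 1 (38.3 and 26.0 TPM) but below it in replicate 2 (17.9 and 21.1 TPM). Omentum fibroblasts were the exception, with Fgf1 at 142 ± 27.8 TPM and Fgf7 at 102 ± 10.2 TPM. Among the receptor genes Fgfr1 led in all 12 groups. Its share of the receptor TPM was lowest in omentum fibroblasts, at 50.6% ± 8.18, where Fgfr2 held 28.99% ± 1.83 and Fgfr4 20.4% ± 6.34. The 3 receptor genes summed to 10.8 ± 2.36 TPM in omentum, 12.4 ± 3.27 in mesentery and 12.1 ± 0.845 in epididymal mesothelial cells, against 34.2 ± 3.53, 35.6 ± 8.26 and 30.95 ± 0.958 in the fibroblasts of the same depots. Fgfr3 is not among these 3 genes, so the receptor sums and shares are not totals over all FGF receptors.

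**Figure D1:**
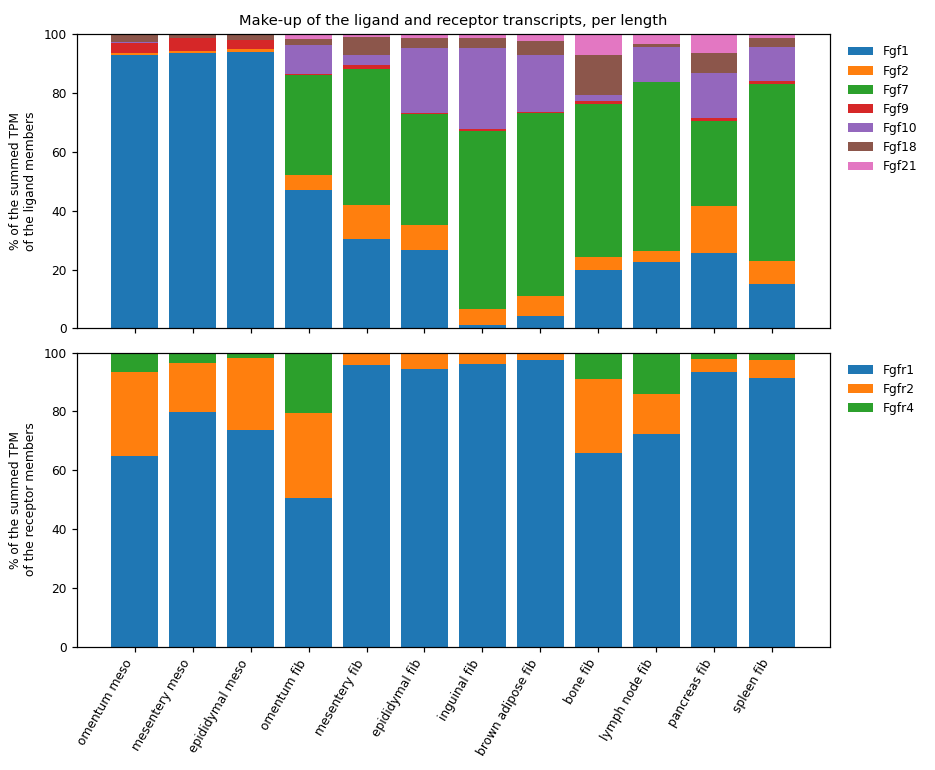
Mean share of each gene in the summed TPM of the 7 ligand genes (top) and 3 receptor genes (bottom), in percent, by group (meso, mesothelial cells, n = 3 each; fib, fibroblasts, n = 3, or 2 for pancreas and spleen). Fgf1 fills most of the ligand sum in each mesothelial group, and Fgfr1 is the largest part of the receptor sum in every group.

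The first comparison asked how mesothelial cells differ from the fibroblasts of the same fat depots. Genes were called where edgeR's quasi-likelihood test gave an adjusted p under 0.05 (Benjamini-Hochberg, all genes tested) and the log2 fold change reached 1 in size. Over the mean of the 3 depots, 6 of the 10 genes were called, 2 higher (Fgf1 and Fgf9) and 4 lower (Fgf2, Fgf7, Fgf10 and Fgfr1) in mesothelial cells, against 21.4% of all genes tested. The median log2 fold change of all 10 genes was -0.87, against 0.11 over all genes tested. For each of these 6 genes the 9 mesothelial libraries did not overlap the 9 fibroblast libraries of the same depots, a share that was not computed over all genes. For Fgf2 they nearly met, at 24.76 CPM in the highest mesothelial and 24.96 CPM in the lowest fibroblast library. Fgf18, Fgf21, Fgfr2 and Fgfr4 were not called. Of all genes, 12.3% were called higher and 9.08% lower. In omentum 2 genes were called higher and 6 lower, against 8.10% and 8.79% of all genes (16.9% in all). In mesentery 2 were called higher and 4 lower, against 10.8% and 7.53% of all genes (18.3% in all). In epididymal fat 3 were called higher and 3 lower, against 16.6% and 8.16% of all genes (24.7% in all), and there the median over all genes was 0.33 and that of the 10 genes 0.16.

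Fgf1, which encodes the ligand that binds all FGF receptors, was higher in mesothelial cells of every depot. It stood at 748, 1029 and 927 CPM in mesothelial cells of omentum, 1859.6, 1959 and 2603 in those of mesentery and 1897, 1653 and 1794 in those of epididymal fat. Fibroblasts had 337, 253 and 227 CPM in omentum, 99.4, 92.96 and 111 in the mesentery and 80.5, 63.3 and 72.97 in epididymal fat. All mesothelial libraries lay above all fibroblast libraries, the omentum ones lowest among mesothelial cells and highest among fibroblasts. The log2 fold change was 1.73 ± 0.24 (adjusted p = 1.14e-06) in omentum, 4.40 ± 0.27 (adjusted p = 1.5e-14) in mesentery and 4.62 ± 0.27 (adjusted p = 5.37e-15) in epididymal fat. Fgf9, the ligand gene known from developing mesothelium, was at 21.7, 26.8 and 30.8 CPM in mesothelial cells of omentum, 77.3, 76.3 and 103 in those of mesentery and 36.2, 58.5 and 59.6 in those of epididymal fat. In fibroblasts it was at 0.861, 1.49 and 0.439 CPM in omentum, 4.18, 4.13 and 3.19 in the mesentery and 0.708, 1.902 and 1.17 in epididymal fat. No library of either cell type reached the range of the other. The log2 fold changes were 4.80 ± 0.36, 4.48 ± 0.33 and 5.33 ± 0.36 in omentum, mesentery and epididymal fat, and the mean over depots was 4.87 ± 0.20 (adjusted p = 9.46e-20).

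**Figure D2:**
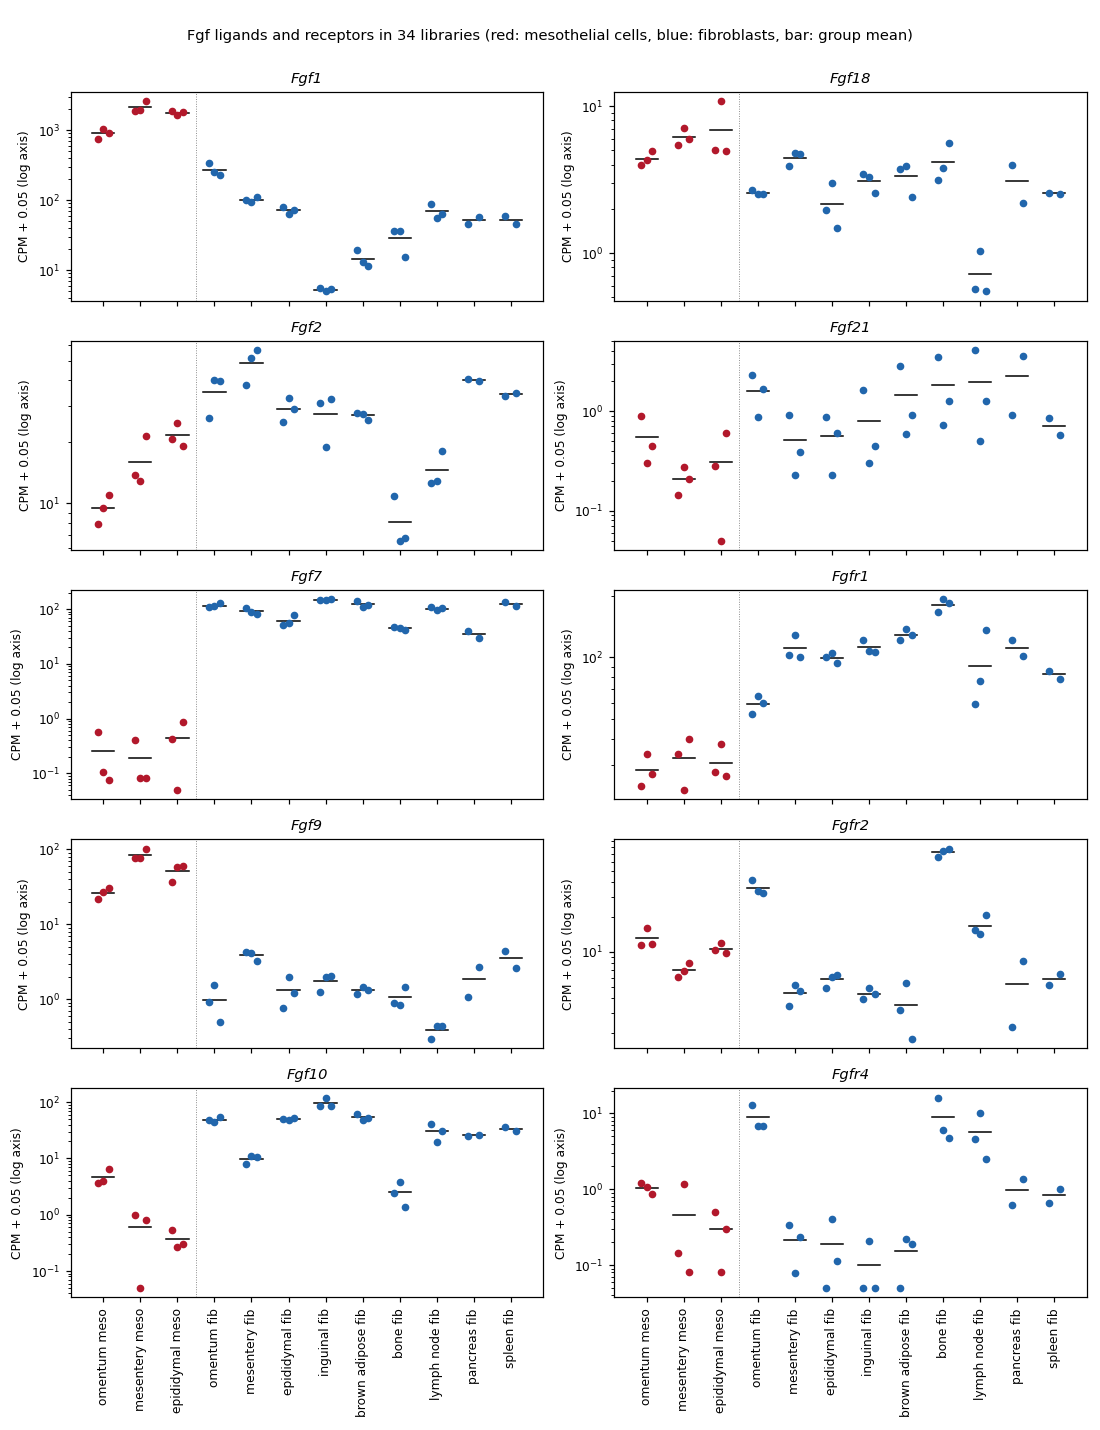
CPM plus 0.05 of each gene in every library on log axes, by group (red, mesothelial cells; blue, fibroblasts; points, libraries; bars, group means). Fgf1 and Fgf9 are higher and Fgf7 and Fgfr1 lower in all 9 mesothelial libraries than in any fibroblast library, and Fgfr2 and Fgfr4 are highest in bone, omentum and lymph node fibroblasts.

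Fgf7 and Fgf10, the genes of the ligands that connective tissue supplies to epithelium, were lower in mesothelial cells of all 3 depots. Fgf7 had 0.529, 0.0551 and 0.0263 CPM in mesothelial cells of omentum, 0.357, 0.0316 and 0.0313 in those of mesentery and 0.3702, 0 and 0.798 in those of epididymal fat, which is 83 reads over all 9 libraries. Fibroblasts had 108, 113 and 127 CPM in omentum, 106, 90.2 and 80.2 in the mesentery and 51.8, 55.8 and 77.1 in epididymal fat. The mesothelial values were near the detection limit, and the lowest of the 25 fibroblast libraries had 29.5 CPM. The log2 fold change over the mean of depots was -8.55 ± 0.28 (adjusted p = 3.91e-22), with -9.31 ± 0.51 in omentum, -9.15 ± 0.51 in mesentery and -7.17 ± 0.44 in epididymal fat. Without the library with the most reads the value was -11.36 in omentum, -11.45 in mesentery and -8.28 in epididymal fat (mesothelial replicates 1, 1 and 3), so the size of these folds is uncertain. Fgf10 had 3.63, 3.94 and 6.35 CPM in mesothelial cells of omentum, 0.951, 0 and 0.751 in those of mesentery and 0.484, 0.222 and 0.251 in those of epididymal fat. Fibroblasts had 47.3, 44.2 and 53.7 CPM in omentum, 7.94, 10.8 and 10.6 in the mesentery and 50.1, 48.99 and 52.1 in epididymal fat. Omentum held the highest mesothelial values, and mesentery fibroblasts were well below those of the other depots. The log2 fold change was -3.37 ± 0.34 (adjusted p = 3.07e-09) in omentum, -4.03 ± 0.42 (adjusted p = 2.34e-09) in mesentery and -7.29 ± 0.46 (adjusted p = 4.04e-14) in epididymal fat. The mesentery value was -4.79 without replicate 1 of its mesothelial cells.

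Fgf2, whose product like FGF1 lacks a classical secretion signal, was lower in mesothelial cells of omentum and mesentery. It had 7.895, 9.42 and 10.9 CPM in mesothelial cells of omentum, 13.7, 12.7 and 21.2 in those of mesentery and 20.6, 24.8 and 18.9 in those of epididymal fat. Fibroblasts had 26.2, 40.02 and 39.5 CPM in omentum, 37.8, 51.6 and 56.2 in the mesentery and 24.96, 32.9 and 28.8 in epididymal fat. The groups did not overlap in any depot, but those of epididymal fat nearly met. The log2 fold change was -1.90 ± 0.24 (adjusted p = 1.82e-07) in omentum, -1.61 ± 0.24 (adjusted p = 1.71e-06) in mesentery and -0.43 ± 0.23 (adjusted p = 0.157) in epididymal fat. Fgf18, which encodes a ligand with known roles in cartilage and bone growth, was low throughout, between 0.498 and 10.7 CPM. It was called in epididymal fat, where mesothelial cells had 4.96, 10.7 and 4.905 CPM and fibroblasts 1.91, 2.94 and 1.42 CPM (1.70 ± 0.33, adjusted p = 0.000122). Its mean over depots, 0.98 ± 0.18 with adjusted p = 4.94e-05, was just short of the fold threshold. Fgf21 was detected at 0 to 0.846 CPM in mesothelial cells and 0.178 to 2.23 CPM in fibroblasts of the same depots, and its mean difference was not called (-1.39 ± 0.61, adjusted p = 0.0767).

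Fgfr1, the receptor gene with the highest transcript level here, was lower in mesothelial cells of each depot. It had 23.7, 33.8 and 27.1 CPM in mesothelial cells of omentum, 33.99, 22.6 and 40.2 in those of mesentery and 27.5, 38.03 and 26.3 in those of epididymal fat. Fibroblasts had 53.2, 64.7 and 59.6 CPM in omentum, 102, 129 and 100.5 in the mesentery and 101, 106 and 93.6 in epididymal fat. The cell types did not overlap, and omentum fibroblasts came closest to mesothelial cells. The log2 fold change was -1.07 ± 0.22 (adjusted p = 0.000344) in omentum, -1.78 ± 0.22 (adjusted p = 9e-08) in mesentery and -1.71 ± 0.22 (adjusted p = 1.78e-07) in epididymal fat. Without replicate 1 of omentum mesothelial cells the omentum value was -0.96, under the fold threshold. Fgfr2, the receptor gene for FGF7 and FGF10 on epithelium, had 11.5, 15.98 and 11.7 CPM in mesothelial cells of omentum, 5.99, 6.74 and 7.97 in those of mesentery and 10.3, 11.8 and 9.72 in those of epididymal fat. Fibroblasts had 42.03, 33.4 and 32.3 CPM in omentum, 3.35, 5.14 and 4.58 in the mesentery and 4.89, 6.09 and 6.24 in epididymal fat. Omentum mesothelial cells were below omentum fibroblasts, and the other mesothelial cells above their fibroblasts, each time without overlap. The log2 fold change was -1.46 ± 0.30 (adjusted p = 0.000343) in omentum, 0.66 ± 0.32 with adjusted p = 0.146 in mesentery and 0.88 ± 0.31 with adjusted p = 0.0295 in epididymal fat, of which only omentum was called. Fgfr4, best known as the bile acid-regulating receptor gene of liver, had 1.16, 1.02 and 0.816 CPM in omentum mesothelial cells and 12.9, 6.74 and 6.79 CPM in omentum fibroblasts (-3.15 ± 0.58, adjusted p = 5.71e-05). In the other 2 depots neither cell type passed 1.16 CPM, and no difference was called.

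The size of the mesothelial difference depended on the depot for 5 of the 10 genes (Fgf1, Fgf2, Fgf10, Fgfr2 and Fgfr4), against 10.9% of all genes, by a test of the difference between the 3 effects with a range of at least 1. The range of the effects was 2.90 for Fgf1 (adjusted p = 1.53e-07), 1.47 for Fgf2 (adjusted p = 0.00496) and 3.92 for Fgf10 (adjusted p = 3e-05). For the receptors it was 2.34 for Fgfr2 (adjusted p = 0.000271) and 4.28 for Fgfr4 (adjusted p = 0.0146). The Fgfr4 range was 5.95 without replicate 2 of epididymal fibroblasts, 4.99 without replicate 1 of mesentery fibroblasts and 4.86 without replicate 1 of mesentery mesothelial cells. Its call rested on few counts and was lost without replicate 2 of mesentery mesothelial cells (adjusted p = 0.0723), with DESeq2 (adjusted p = 0.0608) and when the libraries rich in acinar transcripts were left out (adjusted p = 0.242). Fgf7, with few reads in mesothelial cells, had a range of 2.14 and was not called (adjusted p = 0.0829), but it was called without replicate 1 of omentum mesothelial cells, where the range was 4.19, replicate 1 of mesentery mesothelial cells (4.17) or replicate 2 of epididymal mesothelial cells (2.64). Omentum stood apart for Fgf1, Fgfr2 and Fgfr4, for which its fibroblasts had the highest levels of the 3 depots. Those are also the fibroblasts with the most mesothelial and leukocyte marker transcripts of the 3 depots, and whether these set the Fgf1, Fgfr2 or Fgfr4 values was not tested. The Fgfr2 and Fgfr4 means in omentum fibroblasts were above those of omentum mesothelial cells. Between the 3 groups of mesothelial cells alone, 4 genes were called, Fgf1, Fgf2, Fgf9 and Fgf10, against 12.3% of all genes. Per group of mesothelial cells, Fgf9 averaged 26.4 ± 4.55 CPM in omentum, 51.4 ± 13.2 in epididymal fat and 85.4 ± 14.99 in mesentery, a range of 1.69 on the log2 scale (adjusted p = 0.000232).

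**Figure D3:**
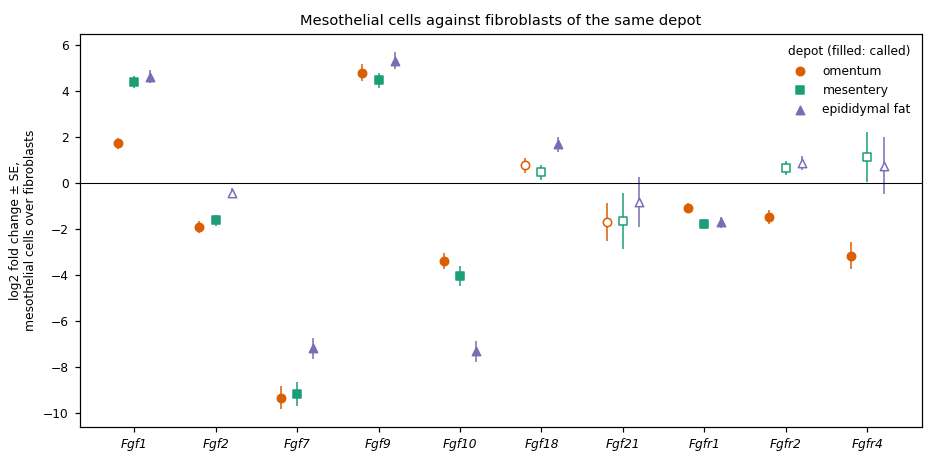
Log2 fold change ± SE of mesothelial cells over fibroblasts of the same depot for each gene (n = 3 libraries a group; filled, called; open, not called). Fgf7 lies lowest in omentum and mesentery and Fgf10 in epididymal fat, at -7.29, and for Fgfr2 and Fgfr4 only the omentum value is called.

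The next comparisons asked how fibroblasts differ between tissues. Over the 9 tissues 9 of the 10 genes were called, all but Fgf21 (adjusted p = 0.129), against 44.0% of all genes. Fgf21 was called there with no filter on low counts (adjusted p = 7.54e-06). The median range of the group effects was 3.08 for the 10 genes and 1.82 for all genes. The widest ranges were those of Fgfr4 (7.36), Fgf1 (5.71), Fgf10 (5.27) and Fgfr2 (4.42, and 5.06 without pancreas replicate 2), and the narrowest called one was that of Fgfr1 (1.61). The Fgfr4 range was 6.78 without inguinal replicate 1. No range can be given without inguinal replicate 2, which held all 5 inguinal reads, so the size of the Fgfr4 range is uncertain. Visceral against subcutaneous fat, 4 genes were called, Fgf1, Fgfr2 and Fgfr4 higher and Fgf10 lower in visceral fat, against 8.23% of all genes (4.29% higher and 3.94% lower). The median over all genes was -0.10 and that of the 10 genes 0.02. Of these 4 genes, only Fgf1 had no overlap between libraries. The Fgfr2 mean was 35.9 CPM for omentum fibroblasts, but 4.36 for mesentery and 5.74 for epididymal ones, near inguinal (4.33) and brown adipose (3.40). Fgfr4 likewise stood out only for omentum, with a mean of 8.80 CPM against at most 0.167 for the other fat depots. The Fgf10 mean was lowest for mesentery (9.76 CPM) and highest for inguinal fat (96.4). Its epididymal, omentum and brown adipose means lay close together, from 48.4 to 53.9. In the comparisons of each tissue with the mean of the other 8, the all-gene median lay beyond 0.1 on either side only in pancreas (0.12) and epididymal fat (-0.11).

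Fgf1 separated the fat depots. The 9 visceral fibroblast libraries held 63.3 to 337 CPM, against 5.46, 4.89 and 5.27 CPM in inguinal and 19.2, 12.9 and 11.3 CPM in brown adipose fibroblasts, with no overlap (visceral over subcutaneous 3.86 ± 0.18, adjusted p = 6.14e-17). Mesothelial markers summed to 668 to 997, 128 to 229 and 191 to 281 CPM in fibroblasts of omentum, mesentery and epididymal fat, against 80.2 to 145 CPM in inguinal and 39.7 to 65.6 CPM in brown adipose fibroblasts, and their part in the Fgf1 difference was not tested. By group mean the order in fibroblasts was omentum, mesentery, epididymal fat, lymph node, spleen, pancreas, bone, brown adipose and inguinal. The libraries of epididymal fat, lymph node, spleen and pancreas ran into each other, at 72.3 ± 8.58, 69.1 ± 17.4, 52.4 ± 9.81 and 51.8 ± 9.18 CPM, as did those of bone (29.1 ± 12.1) and brown adipose tissue. Against the mean of the other 8 tissues, Fgf1 was called higher in omentum (2.91 ± 0.14) and mesentery (1.30 ± 0.16) and lower in inguinal (-3.51 ± 0.24) and brown adipose fibroblasts (-1.85 ± 0.21). Of the 10 genes, 3 were called in omentum against 10.02% of all genes, 5 in mesentery against 3.50%, 4 in inguinal against 6.30% and 4 in brown adipose fibroblasts against 6.41%.

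Fgf10, the branching signal of lung and other epithelial organs and an adipogenic factor in mouse, ran the other way between fat depots. Inguinal fibroblasts had 83.9, 119.9 and 85.4 CPM and brown adipose fibroblasts 61.1, 48.4 and 52.1 CPM, while bone had 2.35, 3.79 and 1.34 CPM. The inguinal libraries were above all other fibroblast libraries, and the bone libraries below all of them. Brown adipose, epididymal and omentum fibroblasts overlapped in order, at 53.9 ± 6.57, 50.4 ± 1.56 and 48.4 ± 4.85 CPM. Visceral over subcutaneous fat, the log2 fold change was -1.33 ± 0.19 (adjusted p = 4.37e-06). Each tissue against the other 8, Fgf10 was called higher in inguinal (2.05 ± 0.20), brown adipose (1.11 ± 0.21) and epididymal fibroblasts (1.0012 ± 0.21) and lower in bone (-3.87 ± 0.33) and mesentery (-1.66 ± 0.27). It was the single gene called in epididymal fibroblasts, against 4.43% of all genes, and that value sits on the fold threshold, under which it fell without any 1 of 12 libraries (lowest 0.97).

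Fgf7 varied less among fibroblasts. The group means ran from 34.6 ± 7.21 CPM in pancreas and 44.1 ± 2.48 in bone to 124 ± 12.1 in spleen and 148 ± 2.04 in inguinal fat. The pancreas libraries, at 39.7 and 29.5 CPM, lay below all other fibroblast libraries and the inguinal ones, at 148, 146 and 149.9 CPM, above them. Fgf7 was called lower in pancreas (-1.46 ± 0.31), as the single gene of the 10 against 11.0% of all genes, and in bone (-1.06 ± 0.25). The 9 acinar markers summed to 32413 and 111356 CPM in the pancreas libraries, and their part in the Fgf7 value was not tested. Fgf2 had 10.8, 6.503 and 6.67 CPM in bone, below every other fibroblast library (-1.92 ± 0.21), and 12.5, 12.8 and 17.96 CPM in lymph node (-0.97 ± 0.19, not called). It was highest in mesentery at 37.8, 51.6 and 56.2 CPM, where its value against the other tissues sits on the fold threshold (1.0010 ± 0.16) and fell under it without any 1 of 10 libraries (lowest 0.88).

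Fgf9 and Fgf18 were lowest in lymph node fibroblasts. Fgf9 had 0.246, 0.395 and 0.391 CPM there, against 4.18, 4.13 and 3.19 CPM in mesentery and 4.42 and 2.57 CPM in spleen, where it was highest among fibroblasts. It was called lower in lymph node (-2.28 ± 0.40) and higher in mesentery (1.62 ± 0.24) and spleen (1.47 ± 0.29). Spleen had no other gene called, 1 of 10 against 3.88% of all genes, and without replicate 1 of spleen, the higher of 2 libraries, the spleen value was 1.03 with adjusted p = 0.33. Fgf18 had 0.523, 0.988 and 0.498 CPM in lymph node (-2.15 ± 0.34) and, in the other 8 tissues, values that overlapped between neighbours in the order of means, from 2.09 CPM in epididymal fat to 4.41 CPM in mesentery. Mural cell markers summed to 951 to 1306 CPM in lymph node fibroblasts and to no more than 259 CPM in any other fibroblast library, and their part in the lymph node values of Fgf9, Fgf18 and Fgfr4 was not tested. In lymph node, 3 of the 10 genes were called, against 16.4% of all genes. Fgf21 stayed between 0.178 and 4.03 CPM in fibroblasts. Its libraries spread widely within groups, for example 4.03, 0.452 and 1.21 CPM in lymph node and 3.45, 0.669 and 1.22 CPM in bone, and every neighbouring pair of groups overlapped.

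Of the receptor genes, Fgfr2 was called higher in bone and omentum fibroblasts and Fgfr4 in these and in lymph node, while Fgfr1 was called in no single tissue. Fgfr1 had 167, 192 and 185 CPM in bone, above all other libraries (0.90 ± 0.15, adjusted p = 1.12e-05, under the fold threshold), and 53.2, 64.7 and 59.6 CPM in omentum (-0.92 ± 0.18, likewise not called). Its lymph node libraries spread from 59.5 to 136 CPM. Fgfr2 had 65.8, 74.9 and 78.1 CPM in bone, 42.03, 33.4 and 32.3 CPM in omentum and 15.3, 14.2 and 20.9 CPM in lymph node. These 3 tissues did not overlap each other, and the other 6 had means of 3.403 to 5.800 CPM and overlapped as neighbours in order. Fgfr2 was called higher in bone (3.35 ± 0.18, adjusted p = 7.99e-17) and omentum (2.20 ± 0.19, adjusted p = 5.76e-11) and lower in mesentery (-1.22 ± 0.26), inguinal (-1.23 ± 0.26) and brown adipose fibroblasts (-1.62 ± 0.27), of which the mesentery call was lost without replicate 1 of mesentery fibroblasts (adjusted p = 0.0506). Fgfr4 had 16.1, 5.91 and 4.62 CPM in bone, 12.9, 6.74 and 6.79 CPM in omentum and 4.49, 10.02 and 2.42 CPM in lymph node, and these libraries overlapped. No library of the other 6 tissues passed 1.31 CPM. Fgfr4 was called higher in bone (4.09 ± 0.39), omentum (4.07 ± 0.38) and lymph node (3.36 ± 0.41), with 3.33 in bone without its replicate 1 and 2.65 in lymph node without its replicate 2. Its lower calls in inguinal and brown adipose fibroblasts rest on 5 and 11 reads in 3 libraries each. The inguinal call was lost without any 1 of 3 libraries (inguinal replicates 1 and 3 and epididymal replicate 2), and the brown adipose call without any 1 of 5 (all 3 brown adipose libraries, inguinal replicate 2 and epididymal replicate 2). Over visceral against subcutaneous fat Fgfr4 was called (3.02 ± 0.96, adjusted p = 0.0255), but not without epididymal replicate 2 (2.34, adjusted p = 0.391), brown adipose replicate 1, inguinal replicate 1 or 3, or mesentery replicate 1. Without inguinal replicate 2, which held all inguinal Fgfr4 reads, no fold can be given for the visceral comparison or for the inguinal group. Leukocyte markers summed to 387 to 548 CPM in omentum, 395 to 883 in lymph node and 44.98 to 87.6 in bone fibroblasts, and skeletal muscle markers to 328 to 4718 CPM in bone, and their part in the Fgfr4 or Fgfr2 values was not tested. In bone, 5 of the 10 genes were called, against 19.5% of all genes.

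**Figure D4:**
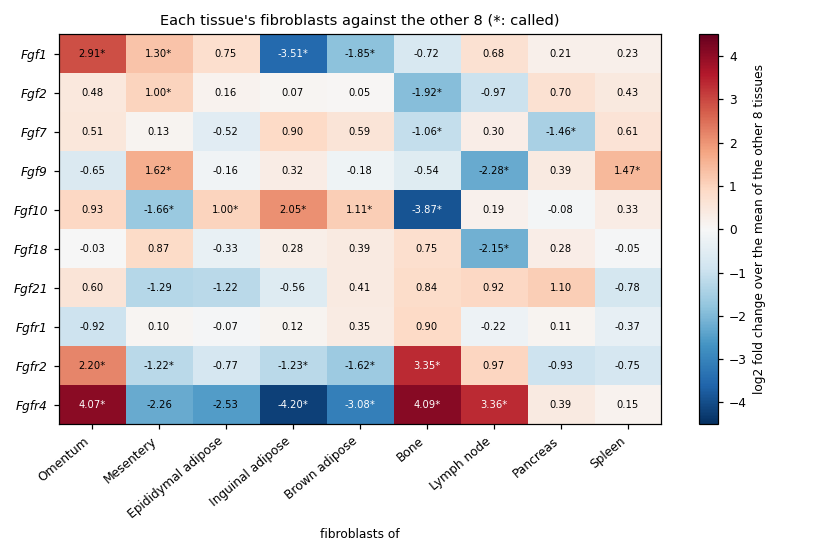
Log2 fold change of each tissue's fibroblasts over the mean of the other 8 tissues (colour and number; asterisk, called; n = 3 libraries, or 2 for pancreas and spleen). Bone combines the highest Fgfr2 value (3.35) with the lowest Fgf10 value (-3.87), and Fgf1 runs from 2.91 in omentum to -3.51 in inguinal fat.

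Likeness was measured by Pearson's r of mean log2 CPM over the 12 groups, among 10144 genes with at least 10 CPM in some group, as a description. The 12 points share the split into 2 cell types. Among the genes most like Fgf7 were Pdgfra (r = 0.989) and Stambpl1 (r = 0.987), of which Pdgfra encodes the receptor used to sort the cells. Those most like Fgf1 were Gpm6a (r = 0.976), Tagap (r = 0.971) and Tuft1 (r = 0.967), and those most like Fgf9 were Shtn1 (r = 0.967), Tbc1d16 (r = 0.964) and Fanca (r = 0.957). The Fgf10 pattern was nearest to P2rx4 (r = 0.976), Hfe (r = 0.964) and Irak3 (r = 0.960). For Fgfr1 they were Aldh18a1 (r = 0.984), Aspn (r = 0.976) and P4ha2 (r = 0.974), among which Aspn encodes a matrix proteoglycan and P4ha2 a collagen prolyl hydroxylase subunit. Fgfr2 was nearest to Vdr (r = 0.936), Cemip2 (r = 0.925) and Pde4d (r = 0.904), where Vdr encodes the vitamin D receptor. Fgfr4, with lower r, was nearest to Ndnf (r = 0.887), Pf4 (r = 0.880) and Lcp1 (r = 0.873), of which Pf4 and Lcp1 are expressed by blood cells. The nearest gene was Cbx6 for Fgf2 (r = 0.898), Kremen1 for Fgf18 (r = 0.905) and Emilin1 for Fgf21 (r = 0.850).

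Other genes of the pathway were read from 10 lists of 73 genes, of which 64 were tested. Over the mean of 3 depots, 28 of these were called, 13 higher and 15 lower in mesothelial cells, against 21.4% of all genes. Among the other ligands, Fgf5 and Fgf16 were higher over the mean of depots. Fgf5 was at 5.01 ± 0.997 CPM in mesentery mesothelial cells and 0.216 ± 0.0861 CPM in mesentery fibroblasts (mean over depots 2.79 ± 0.40). Of the 3 other paracrine ligand genes tested (Fgf5, Fgf16 and Fgf22), 2 were called higher in omentum, 2 in mesentery and 1 in epididymal fat. Of all genes, 8.10%, 10.8% and 16.6% were called higher there. The effect depended on the depot for 2 of the 3, against 10.9% of all genes. Fgf23, the phosphate-regulating hormone gene of bone, had 0.122 ± 0.0632 CPM in omentum mesothelial cells and 11.4 ± 3.38 CPM in omentum fibroblasts (-6.55 ± 0.79), with -3.87 ± 1.02 in mesentery, -2.77 ± 1.49 in epididymal fat (not called) and -4.39 ± 0.67 over the mean of depots. In bone fibroblasts it had 0.0909 ± 0.128 CPM. Fgfr3, the fourth FGF receptor tyrosine kinase gene, was higher in mesothelial cells over the mean of depots (1.99 ± 0.37), but was not called in epididymal fat alone. Its highest mean was 48.6 ± 10.4 CPM in bone fibroblasts. Klb, the gene of beta-Klotho, reached a group mean of 0.8702 CPM at most and was not called (0.16 ± 0.82, adjusted p = 0.927).

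Heparan sulfate carriers and enzymes moved in both directions. Of 11 proteoglycan genes 3 were higher and 4 lower in mesothelial cells, and of 13 enzyme genes tested 2 were higher and 3 lower, against 12.3% higher and 9.08% lower of all genes, with list medians of -0.01 and -0.11. With the adjusted p alone 8 enzyme genes were called, against 9527 of the 25705 genes tested. Sdc4 (syndecan 4) was higher (2.38 ± 0.20), while Sdc3 (syndecan 3, -3.93 ± 0.27), Gpc6 (glypican 6, -2.64 ± 0.11) and Sdc2 (syndecan 2, -1.31 ± 0.09) were lower. Glce, which encodes the epimerase that shapes the chain, and Ext1, a chain polymerase gene, were lower (-2.04 ± 0.13 and -1.87 ± 0.13). Hs3st1 and Hs6st1, sulfotransferase genes, were higher (1.53 ± 0.12 and 1.46 ± 0.16). Of 5 carriers and receptor partners, Flrt1 was higher (4.31 ± 0.29) and Flrt3 lower (-3.40 ± 0.17). Fgfbp1, the gene of a carrier that frees FGFs from matrix, was called higher, at 1.87 ± 0.3597 CPM in mesentery mesothelial cells and with no read in the fibroblasts of the 3 depots.

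Genes that respond to FGF receptor signalling were called in both directions. Of 10 feedback inhibitors tested, 1 was called higher and 2 lower in mesothelial cells, against 12.3% and 9.08% of all genes (list median -0.71, against 0.11 over all genes). With the adjusted p alone 8 of them were called, against 9527 of the 25705 genes tested. Spry1 (Sprouty 1) had 1.16 ± 0.276 CPM in mesothelial cells of omentum, 1.29 ± 0.269 in those of mesentery and 1.69 ± 0.828 in those of epididymal fat, against 10.6 ± 2.64, 19.4 ± 5.24 and 31.7 ± 6.41 CPM in fibroblasts (-3.77 ± 0.20, adjusted p = 6.59e-17). Spred1, the gene of another inhibitor of this signal, was lower too (-1.56 ± 0.11), whereas Dusp5, which encodes a nuclear ERK phosphatase, was higher (4.07 ± 0.27, adjusted p = 1.54e-14). Dusp6, the cytoplasmic ERK phosphatase gene, was not called (0.62 ± 0.11), with depot values of -0.29 ± 0.18 in omentum, 1.28 ± 0.18 in mesentery and 0.85 ± 0.18 in epididymal fat. Of 6 response transcription factors, Etv1 was higher (1.87 ± 0.16) and Etv5 and Etv4 lower (-1.16 ± 0.13 and -1.81 ± 0.47). Etv1 had 208 ± 40.2 CPM in mesothelial cells of omentum, 186 ± 56.4 in those of mesentery and 6.06 ± 1.904 in those of epididymal fat, and its effect differed between depots (adjusted p = 9.14e-09). Fos was high in nearly all groups, with group means from 322 ± 20.2 CPM in pancreas to 6035 ± 1453 CPM in brown adipose fibroblasts. Of the 7 adaptors, Gab1 alone was called (1.88 ± 0.12).

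**Figure D5:**
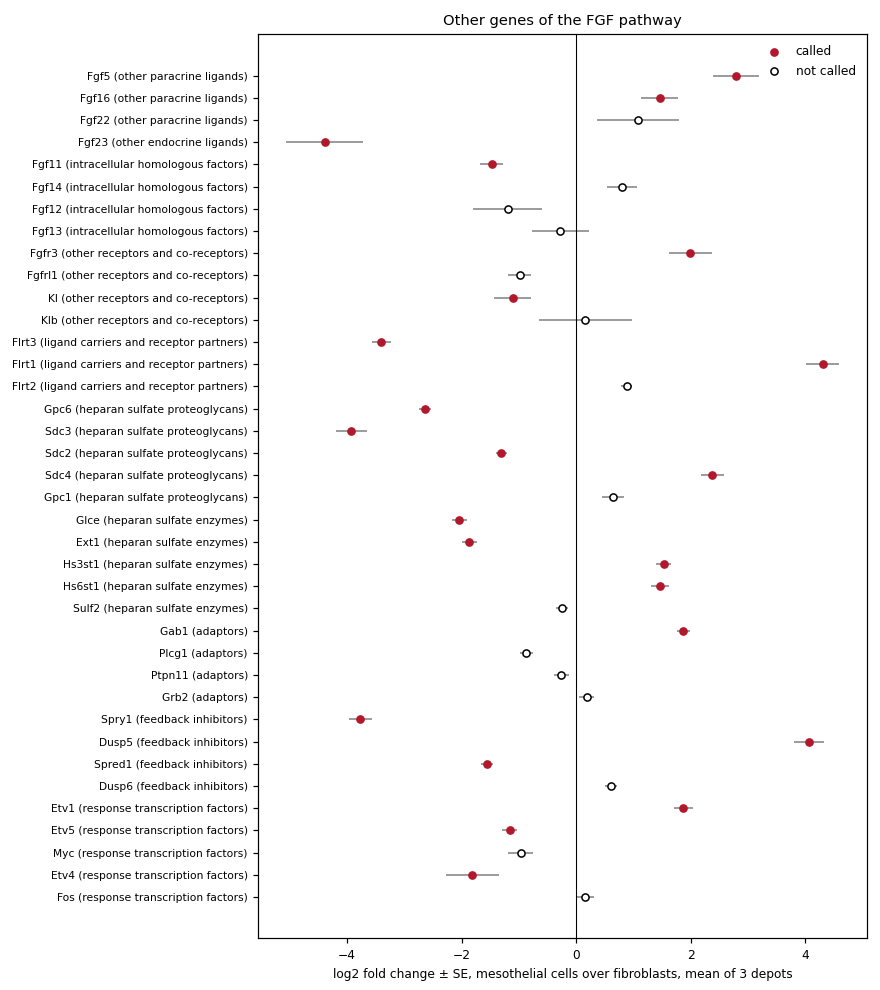
Log2 fold change ± SE of mesothelial cells over fibroblasts, mean of 3 depots (9 libraries each), for the named pathway genes with their list in brackets (filled, called; open, not called; Fgfbp1, with no read on the fibroblast side, is left out). Values stand on both sides of 0 within most lists, for example Spry1 at -3.77 and Dusp5 at 4.07 among feedback inhibitors.

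Across the 9 fibroblast tissues, 48 of the 64 pathway genes tested were called, against 44.0% of all genes. Bone fibroblasts had the highest mean of the cell-surface genes Gpc1 (216 ± 24.9 CPM), Sdc3 (152 ± 23.6 CPM) and Fgfr3, beside the Fgfr1 and Fgfr2 levels given above. Gpc1 had no mean above 19.4 CPM in any other group, and its range over tissues was 7.31 (adjusted p = 3.55e-21). Fgf14, the gene of an intracellular FGF-like factor that binds sodium channels, was highest in lymph node at 24.7 ± 10.4 CPM. Visceral against subcutaneous fat, 10 of 64 were called, 8 higher and 2 lower in visceral fat, against 8.23% of all genes (4.29% higher and 3.94% lower). Among them Dusp6 (1.49 ± 0.12) and Flrt3 (1.45 ± 0.18) were higher and Glce (-1.44 ± 0.13) lower.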

How the data were processed

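Polyadenylated RNA from sorted mouse cells was sequenced in 34 libraries, grouped by their labels. The deposited files hold whole-number read counts per gene, described per the file headers as unique alignments to each gene model. Salmon and GRCm38 are named in the submitters' processing notes, so which step gave the counts is unresolved. Symbols, positions and exon lengths came from GENCODE M21 (51633 of 51826 identifiers matched).

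Counts of all 34 libraries were fitted together, 1 coefficient for each of the 12 groups, in edgeR 4.0.16 (R 4.3.3), with TMM scaling, filterByExpr at a minimum count of 10 and the robust quasi-likelihood F-test, with p-values adjusted by Benjamini-Hochberg over 25705 genes. Where a test spans more than 2 groups or effects, the size given is their range, highest minus lowest. Against the other 8 tissues, folds compare means of log levels. CPM values use TMM-scaled totals, except sums over marker lists, and TPM values unscaled counts over summed exon length. Precision follows from the totals given above, and from 2 or 3 libraries a group. Pairs of replicates differed by a chi-square per degree of freedom of 24.8 to 359, so none was a copy. Members, pathway lists, markers and alternatives were chosen with earlier results of these data known. By rule the text names all 10 genes, up to 4 genes a pathway list by adjusted p in the mean mesothelial comparison and up to 2 across tissues, and the 3 genes most like each member. Some of these are left out for length, and 1 is not reported here. Alternatives were RLE factors, DESeq2 1.42.0, no filter, only the groups compared, the adjusted p alone, a replicate block, unscaled totals, leaving out acinar-rich libraries and leaving out each library.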

Additional observations from a re-analysis of the deposited data

Results flagged for a closer look

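The difference between mesothelial cells and fibroblasts was not of 1 size in the 3 depots for 5 of the 10 genes, against 10.9% of all genes, by a test of the difference between the depots' effects in edgeR. The adjusted p was 1.53e-07 for Fgf1, whose log2 fold change was 1.73 in omentum, 4.40 in mesentery and 4.62 in epididymal fat. For Fgf10 it was 3e-05, with -3.37 in omentum, -4.03 in mesentery and -7.29 in epididymal fat. For Fgf2 it was 0.00496, with -1.90, -1.61 and -0.43 in the same order of depots. For Fgfr2 it was 0.000271, with -1.46 in omentum against 0.66 in mesentery and 0.88 in epididymal fat. For Fgfr4 it was 0.0146, with -3.15 in omentum, 1.13 in mesentery and 0.76 in epididymal fat, from few counts outside omentum. No group held 4 or more libraries, so single libraries were not tested as outliers.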

How the results depend on the processing

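No direction of a called value was reversed by any alternative run. Of 170 values, 10 genes in 17 comparisons, 133 stayed on their side of the threshold throughout and 37 did not. In epididymal fibroblasts against the other 8 tissues (1 of the 10 genes called, 1140 of all genes), 2 were called with no filter on low counts (1531 of all genes) and 2 with DESeq2 (1335), and 0 with a replicate block (1148). In pancreas (1 called, 2817 of all genes), 2 were called with no filter (3386) and 2 with the replicate block (2829). The block also took Fgf2 in mesentery to 0.98 and Fgf10 in epididymal fibroblasts to 0.998, under the fold threshold, and Fgf21 across 9 tissues to an adjusted p of 0.0209. The replicate numbers of the labels were not taken to pair libraries, by a rule that needed every same-number pair to correlate over 0.1. Over 177 pairs with the same number the median correlation of deviations was -0.00251, the highest was 0.374, and 25 were over 0.1. Of 34 libraries, 16 correlated best with their own number. Pairing within single depots was not tested, and a rule that needs every pair to pass cannot exclude it. With the adjusted p alone, the genes called were 9527 over the mean of depots, 3893 for visceral against subcutaneous fat, and by tissue 4356 in omentum, 1457 in mesentery, 2034 in epididymal, 2577 in inguinal, 2630 in brown adipose, 7732 in bone and 7127 in lymph node fibroblasts. Of the 10 genes it called 7 for visceral fat, 6 in omentum, 2 in epididymal fat, 8 in bone, 6 in lymph node and 3 in pancreas (3921 of all genes). Leaving out each library in turn, genes with a depot-dependent effect numbered 1767 to 3418. In the same way 1862 to 3063 genes and 1 to 2 of the 10 were called in pancreas, 476 to 1068 genes and 0 to 1 of the 10 in spleen, and 0 to 1 of the 10 in epididymal fibroblasts. The depot count was 1767 without replicate 2 of omentum fibroblasts and 1828 without replicate 2 of omentum mesothelial cells, the pancreas count 1862 without its replicate 1, and the spleen count 476 without its replicate 2 and 567 without its replicate 1, which also ended the Fgf9 call. Fgf21 was called over the mean of depots with no filter (adjusted p = 0.000823), DESeq2 (0.0219), only the groups compared (0.0102) and the replicate block (0.0357). The depot-dependence of Fgf7 was called with no filter (0.0115), DESeq2 (0.00766) and without the acinar-rich libraries (0.0108). Fgfr4 in visceral over subcutaneous fat was not called without those libraries (0.182). Leaving out the acinar-rich libraries was not run where pancreas was needed. With unscaled totals 105 of 120 group means moved by under 1 SD and 15 by more. Low counts limit Fgf7 in mesothelial cells, Fgf21 and Fgfr4.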
